A study of Mus musculus with 8 samples.

Results

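The interferon gamma induced GTPases described here are 10 mouse genes, 6 guanylate-binding proteins (Gbp2, Gbp3, Gbp4, Gbp5, Gbp6 and Gbp7) and 4 immunity-related GTPases (Igtp, Irgm1, Irgm2 and Iigp1). They were found by gene name among the non-control probes of the arrays. All 10 were present among 37058 names, with 15 probes of 56567, and 14 of these 15 probes were among the 31912 that were bright enough to be tested. The samples were CT26 tumors, grown under the skin of mice from 500000 implanted cells of a colorectal cancer line that comes from BALB/c mice, and total RNA of the tumor tissue was measured on 8 one-color Agilent arrays. The study asked how gene expression in the tumor differs after blocking the prostaglandin E2 receptor EP4, after blocking the checkpoint receptor PD-1, and after both. The 4 groups had 2 samples each, called biological replicates in the series description, and each group was treated for 2 weeks. Vehicle tumors received no agent. TP-16 tumors received the EP4 antagonist TP-16, also named BY001, by mouth each day at 75 mg/kg. Anti-PD-1 tumors received the antibody by intraperitoneal injection at 50 µg per mouse, 2 doses per week, and combination tumors received both agents at those doses. Whether a sample was 1 tumor or a pool is not given in the sources used here, and the labels give no age. By the study's methods the mice were female, CT26 cells under the skin were grown in BALB/c mice, and ages are given there as 1 range over several strains.

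Interferon gamma binds its receptor and activates the kinases Jak1 and Jak2, and the signal leads to the transcription of Irf1 and a large set of target genes. Guanylate-binding proteins and immunity-related GTPases are among the most strongly induced of these targets in many mouse cell types, and they are best known for attacking the membranes of vacuoles that hold microbes. They are made by cancer, stromal and immune cells that interferon gamma reaches.

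Levels are given as log2 signal after the 75th percentile of the same array was subtracted, so that 0 is the 75th percentile, and a value is compared only with the same probe on other arrays. The 2 values of a group are given lower first unless another order is named. All 8 arrays were on 1 slide and had 1 scan time. On the slide, the groups with antibody lay in row 2 and those without it in row 1, and the groups with TP-16 lay in columns 3 and 4, so position and treatment cannot be told apart. Each of the 14 tested probes passed the scanner's background test on every array. In tissue RNA, fewer cells of a type and less RNA per cell cannot be told apart.

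Before the comparisons, 1 sample has to be described. Vehicle replicate 1 was the lowest of the 8 samples for all 10 members. The gap from vehicle replicate 1 up to vehicle replicate 2 had a median of 2.25 log2 units over the members and ran from 1.61 to 2.86, which is 3.06-fold to 7.25-fold. Over all 21497 genes tested, the median absolute gap between the vehicle samples was 0.23. In the other groups the median absolute gap of the members was 0.45 between the TP-16 samples, 0.16 between the antibody samples and 0.20 between the combination samples. Fold changes of combination over vehicle are therefore given with and without vehicle replicate 1 for each member.

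Gbp2 is a guanylate-binding protein that gathers on pathogen vacuoles. Its probe on chromosome 3 (142300719 to 142300778, mm9) read 2.78 and 5.37 in vehicle, 5.89 and 5.98 in TP-16, 6.31 and 6.34 in anti-PD-1, and 6.65 and 6.78 in combination tumors. No treated sample was as low as either vehicle sample, and the 4 groups did not overlap. Gbp2 was 6.25-fold higher in combination than in vehicle tumors (log2 fold change 2.64, SE 0.76, limma adjusted p = 0.0459), and 2.55-fold without vehicle replicate 1.

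Gbp5, a promoter of inflammasome assembly, read −0.59 and 1.02 in vehicle, 1.43 and 2.26 in TP-16, 2.11 and 2.44 in anti-PD-1, and 2.96 and 3.43 in combination tumors. TP-16 and anti-PD-1 samples overlapped, and the combination samples lay above all others. Its log2 fold change of 2.98 in combination over vehicle (SE 0.56, fold 7.88, adjusted p = 0.016) had the smallest adjusted p of the members, and the fold was 4.51 without vehicle replicate 1. Averaged with its other tested probe, which did not rise, the log2 value was 1.17 (adjusted p = 0.0272). Gbp7 read −0.49 and 1.41 in vehicle, 2.19 and 2.60 in TP-16, 2.49 and 2.65 in anti-PD-1, and 3.43 and 3.44 in combination tumors. It again separated vehicle and combination from the single agents, which overlapped, and was 7.87-fold higher in combination than in vehicle tumors (log2 2.98, SE 0.58, adjusted p = 0.017), or 4.07-fold without that vehicle sample.

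Gbp3 lies in the same cluster on chromosome 3 as Gbp2, Gbp5 and Gbp7. It read 2.44 and 4.73 in vehicle, 5.25 and 5.51 in TP-16, 5.64 and 5.78 in anti-PD-1, and 6.18 and 6.21 in combination tumors, with no overlap between groups. The combination was 6.12-fold above vehicle (log2 2.61, SE 0.68, adjusted p = 0.035), and 2.77-fold without vehicle replicate 1. Gbp4 and Gbp6 belong to the other guanylate-binding protein cluster, on chromosome 5. Gbp4 read 0.68 and 3.53 in vehicle, 3.74 and 4.47 in TP-16, 4.38 and 4.53 in anti-PD-1, and 5.03 and 5.19 in combination tumors. Gbp6 read −1.77 and 1.00 in vehicle, 1.60 and 2.10 in TP-16, 1.94 and 2.26 in anti-PD-1, and 2.98 and 3.23 in combination tumors. For both genes the single agents overlapped each other, and vehicle and combination stood apart. The fold of combination over vehicle was 8.05 for Gbp4 (log2 3.01, SE 0.87, adjusted p = 0.0459) and 11.3 for Gbp6 (log2 3.49, SE 0.84, adjusted p = 0.0284). These were 2.99 and 4.30 without vehicle replicate 1.

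Igtp, Irgm1 and Irgm2 are regulatory immunity-related GTPases that sit on the cell's own membranes and hold effector GTPases inactive there. Igtp read 2.95 and 5.15 in vehicle, 5.60 and 5.89 in TP-16, 6.06 and 6.12 in anti-PD-1, and 6.57 and 6.79 in combination tumors. Irgm1 read 1.96 and 3.60 in vehicle, 3.86 and 4.08 in TP-16, 4.23 and 4.32 in anti-PD-1, and 4.57 and 4.93 in combination tumors. Irgm2 read 1.40 and 3.32 in vehicle, 3.64 and 4.13 in TP-16, 4.13 and 4.33 in anti-PD-1, and 4.69 and 4.92 in combination tumors. Igtp and Irgm1 kept the 4 groups apart, while for Irgm2 the higher TP-16 sample and the lower anti-PD-1 sample were equal at this rounding. The combination was 6.20-fold above vehicle for Igtp (log2 2.63, SE 0.66, adjusted p = 0.0314), 3.90-fold for Irgm1 (log2 1.97, SE 0.50, adjusted p = 0.0333) and 5.44-fold for Irgm2 (log2 2.44, SE 0.59, adjusted p = 0.0294). The folds without vehicle replicate 1 were 2.89, 2.21 and 2.79.

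Iigp1 is an effector GTPase that loads onto vacuole membranes. It read 2.55 and 5.11 in vehicle, 5.14 and 5.66 in TP-16, 5.77 and 5.93 in anti-PD-1, and 6.21 and 6.38 in combination tumors. The lower TP-16 sample lay just above vehicle replicate 2, and the groups did not overlap. Its combination value was 5.51-fold above vehicle (log2 2.46, SE 0.77) with an adjusted p of 0.0569, so Iigp1 was the member that missed the adjusted threshold. It passed without vehicle replicate 1, at 2.27-fold and an adjusted p of 0.0317.

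**Figure D1:**
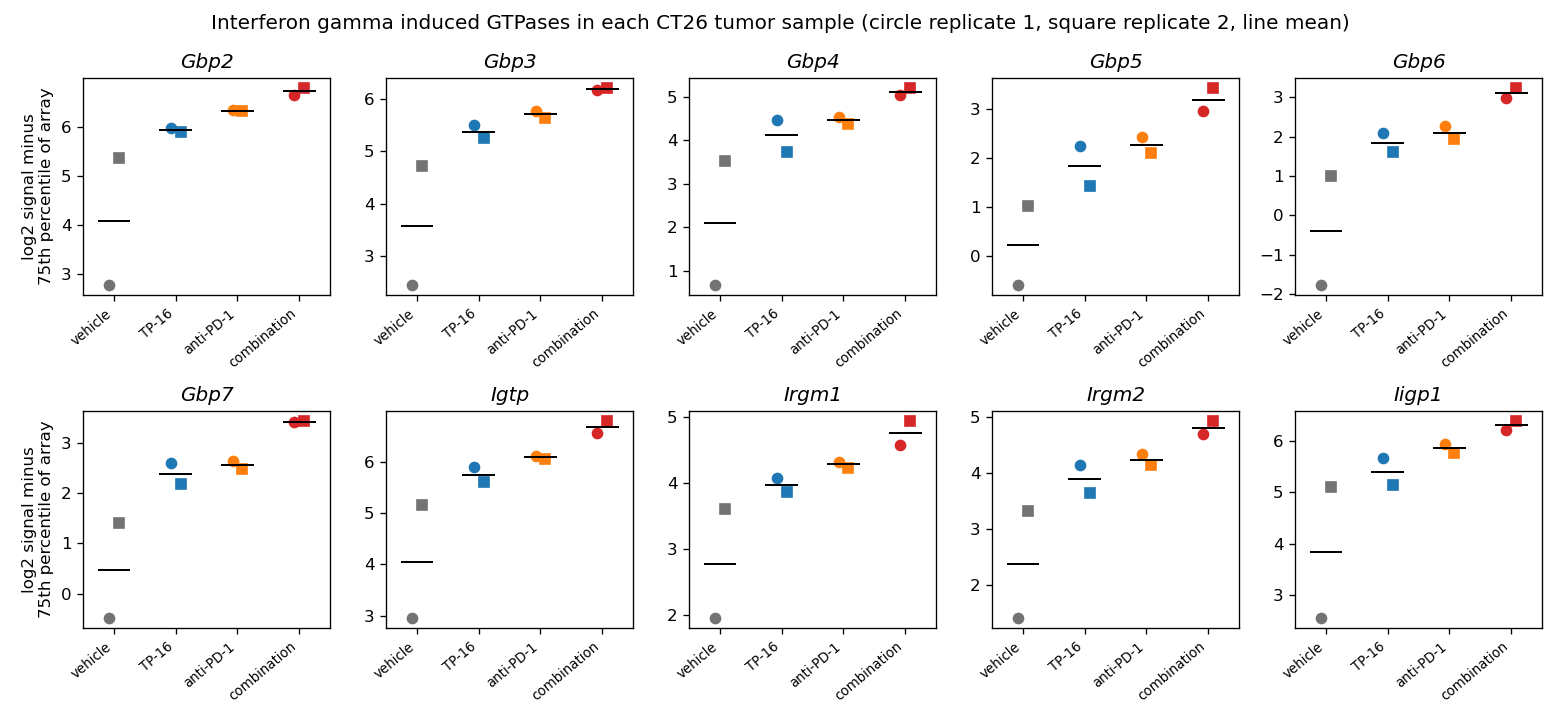
Log2 signal minus the 75th percentile of the array (vertical axis, a scale of its own in each panel) for the brightest tested probe of each of the 10 genes, by treatment group (horizontal axis). Circles are replicate 1, squares replicate 2 and lines the mean of 2 samples. Vehicle replicate 1 is the lowest sample and combination replicate 2 the highest in all 10 panels.

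Combination against vehicle asks what both agents together did. A gene was called when its fold was at least 2 and its limma p, adjusted over all 31912 tested probes, was at most 0.05. By that rule 9 of 10 members were higher in combination tumors, where 5.59% of all tested genes were called higher. At an unadjusted p all 10 were called, against 6.65% of genes. The members' log2 fold changes ran from 1.97 to 3.49 with a median of 2.64, a fold of 6.23, while the median of all genes was −0.24. Both combination samples exceeded both vehicle samples for all 10 members, as they did for 23.2% of genes. Without vehicle replicate 1 the median fell to 1.51, a fold of 2.84, and 10 of 10 were called, against 4.05% of genes. That fit takes vehicle replicate 2 as a lone sample that varies like the other groups. The count rested on other samples too: 0 members were called without combination replicate 2, 1 without combination replicate 1, 2 without either anti-PD-1 sample and 4 without either TP-16 sample. Without combination replicate 2, limma called 0 of all tested probes at an adjusted p (2999 unadjusted, 4004 adjusted with every sample), so the calls of other genes in this comparison rest on it too. With no filter on dim probes 2 members were called. With only the compared groups in the fit or by the methods' t-test 0 members were. Each of these last settings also called 0 of all tested probes at an adjusted p.

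TP-16 against vehicle asks about the EP4 antagonist alone. With limma, 0 of 10 members were called at an adjusted p, as 0.00465% of genes were called higher, and adjusted p ran from 0.122 to 0.255. At an unadjusted p 6 members were called (Gbp3, Gbp5, Gbp6, Gbp7, Igtp and Irgm2), against 1.56% of genes, and the methods' t-test called 0. All 10 log2 fold changes were positive, from 1.19 for Irgm1 to 2.23 for Gbp6, with a median of 1.75, a fold of 3.35, and a median of all genes of −0.15. Both TP-16 samples lay above both vehicle samples for all 10 members and for 16.5% of genes. Without vehicle replicate 1 the median was 0.59, a fold of 1.5, beside −0.17 for all genes. The members then ran from 0.29 to 0.99, so each missed the fold of 2. Without vehicle replicate 2, which leaves the low vehicle sample alone, the median was 2.87, a fold of 7.3. Unadjusted calls fell to 0 without TP-16 replicate 1 and to 2 without TP-16 replicate 2 or any single anti-PD-1 or combination sample. Normexp background gave 1 adjusted and 10 unadjusted calls, trend and robust spread 2 unadjusted calls, and only the compared groups in the fit 0.

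Anti-PD-1 against vehicle asks about the antibody alone. Limma called 0 of 10 members at an adjusted p, where 0.0279% of genes were called higher, with adjusted p from 0.272 to 0.330. At an unadjusted p all 10 were called, against 1.90% of genes, and the methods' t-test called 0. Log2 fold changes ran from 1.5 for Irgm1 to 2.49 for Gbp6, with a median of 2.09, a fold of 4.24, beside −0.099 for all genes. For all 10 members both antibody samples exceeded both vehicle samples, which held for 15.7% of genes. Without vehicle replicate 1 the median was 0.95, a fold of 1.93, beside −0.11 for all genes. The members then ran from 0.68 to 1.25. Gbp5, Gbp6 and Gbp7 reached a fold of 2 in that fit, and the other members did not. Without vehicle replicate 2 the median was 3.21, a fold of 9.24. Unadjusted calls fell to 1 without anti-PD-1 replicate 1, to 2 without anti-PD-1 replicate 2 and to 2 with only the compared groups in the fit. These 3 comparisons share the vehicle samples, so their values for a gene are not independent.

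**Figure D2:**
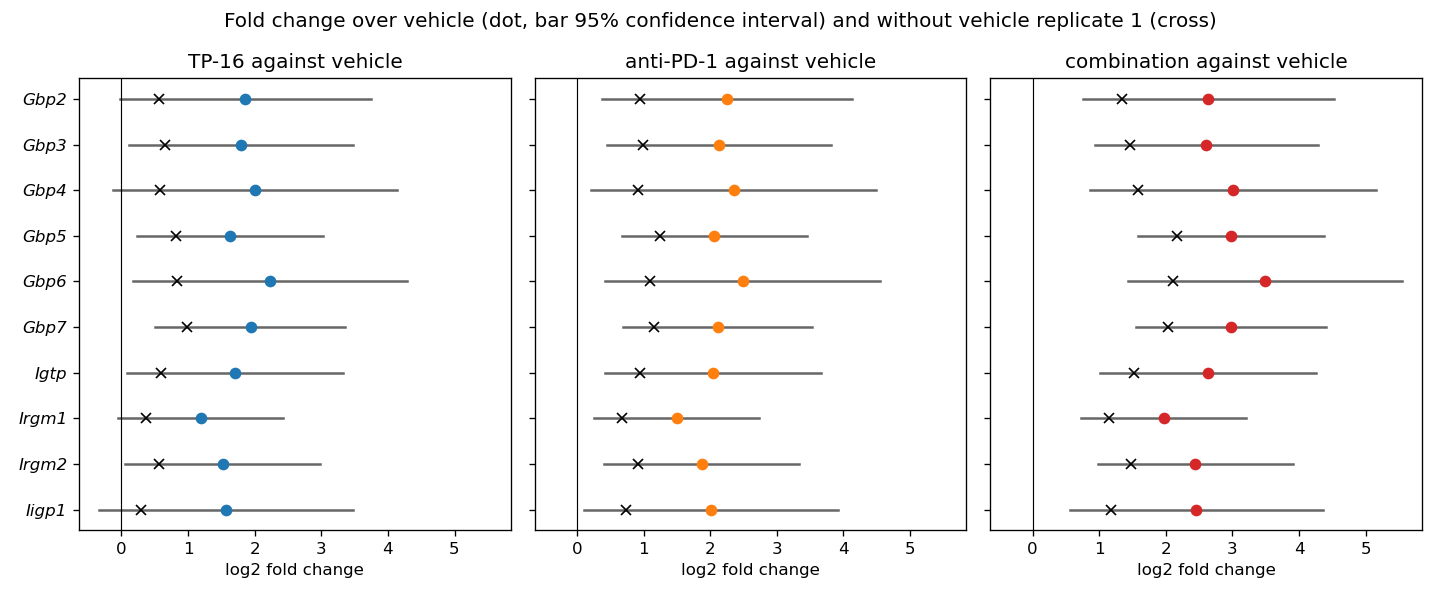
Log2 fold change over vehicle (horizontal axis) of each of the 10 genes in 3 panels, 1 for each treated group. Dots are limma estimates with 2 samples per group, bars their 95% confidence intervals, and crosses the estimate without vehicle replicate 1. The median falls from 2.64 to 1.51 for the combination, from 2.09 to 0.95 for anti-PD-1 and from 1.75 to 0.59 for TP-16.

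Comparisons among treated groups do not use the vehicle level. Combination over TP-16, which is the antibody added to TP-16, had log2 fold changes from 0.78 to 1.35 with a median of 0.93, a fold of 1.91, beside −0.09 for all genes. Limma called 0 of 10 members at an adjusted p (0% of genes higher) and 0 at an unadjusted p (4% of genes), and the methods' t-test called 2 at its unadjusted threshold. Both combination samples lay above both TP-16 samples for all 10 members and for 23% of genes. The interval for Gbp5, from −0.04 to 2.73, came nearest to leaving 0 out. Combination over anti-PD-1, which is TP-16 added to the antibody, had log2 fold changes from 0.39 to 1.01 with a median of 0.58, a fold of 1.5, beside −0.14 for all genes. Here too limma called 0 of 10 at an adjusted p (0% of genes higher) and 0 at an unadjusted p (2.39% of genes), and the methods' t-test called 1. Both combination samples exceeded both anti-PD-1 samples for all 10 members and for 23.2% of genes. In these fits the spread includes the gap between the vehicle samples. When either vehicle sample was left out, 4 members were called at an unadjusted p for the antibody added to TP-16 and 1 for TP-16 added to the antibody, as when only the compared groups were in the fit. For the antibody added to TP-16, normexp background gave 1 such call and keeping only probes above background on all arrays 1.

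Averaged over the absence and presence of TP-16, the antibody's effect on the members had a median log2 of 1.5, and 0 of 10 were called at an adjusted p (0.0093% of genes higher) but 10 at an unadjusted p (2.66%). TP-16, averaged in the same way over the antibody, had a median of 1.14, with 0 called at an adjusted p (0.884% of genes higher) and 4, Gbp5, Gbp6, Gbp7 and Irgm2, at an unadjusted p (1.74%). Without vehicle replicate 1 the medians were 0.93 for the antibody and 0.58 for TP-16, beside −0.095 and −0.15 for all genes. All 10 members were positive for each average effect in that fit. Counts of calls with 1 sample left out are given below as ranges. Normexp background gave 2 adjusted calls for the antibody and 4 for TP-16, and keeping only probes above background on all arrays gave 1 for TP-16. The departure from additivity was negative for all 10, from −1.47 to −0.71 with a median of −1.11, beside −0.002 for all genes. Limma gave 0 members with an adjusted p at the threshold (0% of genes) and 0 at an unadjusted p, the smallest being 0.223, and 1 member passed at an adjusted p without vehicle replicate 2. The departure without vehicle replicate 1 was positive for 6 members and negative for 4, from −0.17 to 0.16 with a median of 0.05, and 0 members passed at either p, so its sign rested on that sample.

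Of the 10 genes, 3 had more than 1 tested probe. All 3 tested probes of Irgm1 showed the same order of group means, and another probe of the gene was not well above background on any array. The dimmer Iigp1 probe read −2.82 and −1.67 in vehicle, −2.18 and −0.87 in TP-16, −1.34 and −0.91 in anti-PD-1, and −0.46 and −0.05 in combination tumors, where its adjusted p against vehicle was 0.0401. For Gbp5 the probes disagreed. Its other probe, on chromosome 3 (142181426 to 142181485, mm9) and assigned to a separate transcript record, read −0.52 and 0.73 in vehicle, −0.97 and −0.04 in TP-16, −0.16 and 0.05 in anti-PD-1, and −0.91 and −0.16 in combination tumors. Its vehicle samples reached both above and into the treated ones, and vehicle replicate 1 was its highest sample. Its log2 value in combination against vehicle was −0.63 (limma adjusted p = 0.376). That value rested on vehicle replicate 1, since vehicle replicate 2, at −0.52, lay between the combination samples.

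Other genes of these families, and related GTPases such as Gvin1, were given by a list, of which 16 were tested. In combination against vehicle 8 rose and 0 fell at an adjusted p, where 5.59% of all genes were called higher. The median log2 fold change of the list was 2.2. Gm12250 rose 15.7-fold (adjusted p = 0.0149), Gbp8 13.7-fold (0.0203), Gbp11 9.55-fold (0.0295), Gbp9 9-fold (0.0221), Gvin1 6.02-fold (0.0113), Gm4951 4.79-fold (0.0383), Gbp10 4.72-fold (0.0102) and Gm5431 3.90-fold (0.0102). Leaving out vehicle replicate 1 gave folds of 6.87, 5.78, 3.94, 4.12, 4.10, 2.41, 3.64 and 4.07 in the same order and a median log2 of 1.13 for the list, and Gbp2b was called too (2-fold). The probes of Gbp8, Gbp9, Gbp10 and Gvin1 also list accessions of related genes, which leaves Gbp9, Gbp10 and Gvin1 uncertain. Gbp8 has a dimmer probe without such accessions, well above background on 7 arrays. By replicate it read −4.72 and −1.97 in vehicle and 0.22 and 0.71 in combination tumors (log2 3.81, adjusted p = 0.0254). Part of that log2 value rested on vehicle replicate 1, the dimmest array for this probe, so it is not an exact fold. Gm4841 and F830016B08Rik, picked after their values were seen, did not follow. In replicate order, Gm4841 read 5.98 and 3.67 in vehicle and 4.14 and 2.51 in combination tumors (log2 −1.5, adjusted p = 0.268). Its other probe read −1.81 and 1.87 in vehicle and 2.63 and 2.54 in combination tumors (log2 2.56, adjusted p = 0.118). Much of that value rested on vehicle replicate 1. F830016B08Rik read 4.0 and 2.01 in vehicle and 3.46 and 2.41 in combination tumors. For the first Gm4841 probe and F830016B08Rik the log2 values without vehicle replicate 1 were −0.34 and 0.92. TP-16 and anti-PD-1 alone gave 0 calls at an adjusted p for the list by limma, and 7 and 10 at an unadjusted p, all higher, or 1 and 4 without vehicle replicate 1.

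Upstream, genes of the interferon gamma signal chain were looked up by a list. Of 19 tested, 9 rose and 0 fell in combination against vehicle, where 5.59% of all genes were called higher. Their median log2 was 0.88, and 0.7 without vehicle replicate 1. Ifng, the cytokine itself, read −3.58 and −0.49 in vehicle, 0.00 and 0.75 in TP-16, 0.70 and 1.09 in anti-PD-1, and 1.67 and 2.38 in combination tumors. Vehicle replicate 1 was again the lowest sample, and the TP-16 and anti-PD-1 samples overlapped. Ifng was 16.7-fold higher in combination than in vehicle tumors (log2 4.06, SE 0.96, adjusted p = 0.0276), and 5.72-fold without vehicle replicate 1. Irf1 read 3.83 and 5.05, 5.14 and 5.53, 5.67 and 5.78, and 5.93 and 6.20 in the same order of groups, and was 3.08-fold higher (log2 1.62, SE 0.39, adjusted p = 0.029), or 2.02-fold without that vehicle sample. Ciita, the switch of MHC class II genes, rose 28.7-fold, Stat2 3.56-fold, Nlrc5 3.03-fold, Irf7 and Irf8 2.76-fold each and Socs1 2.16-fold. The log2 value of Ciita without vehicle replicate 1 was 3.42, Stat2 rose 2.61-fold and Irf7 2.22-fold, and Nlrc5, Irf8 and Socs1 were no longer called, at 1.84-fold, 1.90-fold and 1.77-fold. The receptor chains Ifngr1 and Ifngr2 and the kinases Jak1 and Jak2, picked for their place in the chain after the values were seen, were not called, with log2 values of 0.47, −0.33, 0.65 and 0.59. Jak1 and Jak2 passed the adjusted p (0.0138 and 0.013) and missed the fold of 2.

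Among 22 other genes that interferon gamma induces, 13 rose and 0 fell in combination against vehicle, with a median log2 of 1.59. Of the 22, 20 had positive log2 values. Cxcl11 (log2 −0.73, limma adjusted p = 0.0395) and B2m (log2 −0.48, adjusted p = 0.0427) were lower and missed the fold of 2. Ido1, which breaks down tryptophan, rose 16.1-fold, the T cell attractant Cxcl9 9.08-fold, the nitric oxide synthase Nos2 7.19-fold and Cd274, which encodes PD-L1, 6.03-fold. Cybb, Icam1, Cxcl10, Tap2, Slfn1 and Fcgr1 rose 4.93-fold, 3.90-fold, 3.57-fold, 3.12-fold, 2.97-fold and 2.58-fold, the protease inhibitor Serpina3g rose by 3.41 log2 units, and Irf1 and Socs1 are also on this list. When vehicle replicate 1 was left out, 11 rose, the median was 0.95, and Fcgr1 and Socs1 were no longer called (1.84-fold and 1.77-fold). In that fit Ido1 rose 4.91-fold, Serpina3g 3.98-fold, Cd274 3.94-fold, Cxcl9 2.98-fold and Tap2 2.05-fold, and Nos2 7.38-fold. Of 23 genes induced by type I interferon, 17 rose and 0 fell, with a median of 1.39. These were Oas3 (4.70-fold), Oasl2 (4.11-fold), Ifit3, Mx1, Oas2, Rsad2, Cmpk2, Ifi44, Ifit2, Irf7, Rtp4, Ifih1, Xaf1, Mx2, Ifit1, Usp18 and Bst2 (2.01-fold). Of the 23, 13 were called without vehicle replicate 1, with a median of 1.06, and Xaf1, Mx2, Usp18 and Bst2 were not (1.83-fold, 1.97-fold, 1.93-fold and 1.80-fold). Against vehicle, limma called 0 genes of either list at an adjusted p for a single agent. At an unadjusted p, 6 of the 22 and 10 of the 23 were higher with TP-16 (1.56% of all genes), and 8 and 11 with the antibody (1.90%). These were, without vehicle replicate 1, 2 and 5 for TP-16 and 3 and 4 for the antibody, with 1 of the 23 at an adjusted p for TP-16.

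Genes that work with the GTPases were looked up in the same comparison, where 5.59% of all genes were called higher. A list of 14 genes held autophagy conjugation genes, which place these GTPases on membranes, and others such as the ubiquitin ligases Traf6 and Trim21. Of the 14, 1 rose, Trim21 (2.43-fold, limma adjusted p = 0.0247), and 0 fell. No Atg, Gabarap or Map1lc3 gene of the list was called. The median log2 of the list was −0.21 beside −0.24 for all genes. Of 10 tested inflammasome and pyroptosis genes 2 rose, Mefv (3.99-fold, adjusted p = 0.0299) and Nlrc4 (2.64-fold, adjusted p = 0.0177), and 0 fell, with a median of 0.62. Once vehicle replicate 1 was left out, Trim21 (1.81-fold) and Nlrc4 (2.23-fold, adjusted p = 0.0512) were no longer called, and Mefv was 2.44-fold higher. Of 9 atlastins and dynamin family GTPases, which are related large GTPases, 0 were called by limma at either threshold, with a median of 0.06.

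Across the 8 samples, all 45 pairs of members had a Pearson correlation between 0.945 and 0.998, and between 0.931 and 0.997 over the 7 samples without vehicle replicate 1. Outside these families, 14388 named genes were ranked by their correlation with the mean of the members' centered values over the 8 samples. Among the highest were Slamf8 (0.9965), Ifng (0.996), Nlrc5 (0.995), Ly6a (0.9949), Serpina3g (0.9941), Parp9 (0.9929), Erap1 (0.9918), Irf1 (0.9913) and Htr7 (0.9908). Over the 7 samples without vehicle replicate 1 their correlations lay between 0.956 and 0.990. These values describe the samples, which share groups and 1 slide.

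Summed marker signal of 4 immune cell types and of skeletal muscle was, like the members, lowest in vehicle replicate 1, though single markers such as Mrc1, Mertk and Zbtb46 were not. Summed signal is given in multiples of the array's 75th percentile, in the group order used so far and with replicate 1 first. A sum follows its brightest probes and is set only against the same sum on other arrays. The 9 tested T cell markers, with Lck the brightest, summed to 5.19 and 17.3, 30.3 and 24.6, 29.5 and 22.9, and 37.1 and 64.0. Of these, 5 of 9 rose in combination against vehicle, where 5.59% of all genes were called higher. Dendritic cell markers, with Itgax the brightest, summed to 1.34 and 2.46, 5.05 and 3.66, 3.07 and 2.48, and 5.94 and 7.57, and 5 of 6 rose. NK cell markers, with Gzma the brightest, summed to 9.53 and 42.4, 43.9 and 42.4, 62.8 and 43.2, and 48.4 and 50.8, and 1 of 6 rose. Macrophage markers, with C1qc the brightest, summed to 165 and 217, 226 and 213, 230 and 191, and 281 and 394, and 5 of 9 rose. Skeletal muscle markers, with Acta1 the brightest, summed to 14.2 and 36.3, 37.6 and 35.0, 54.0 and 22.6, and 35.7 and 37.6. Without vehicle replicate 1 the calls were 6 of 9 for T cells, 4 of 6 for dendritic cells, 0 of 6 for NK cells by limma (3 at an unadjusted p) and 2 of 9 for macrophages. Their part in the members' differences was not tested.

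Other marker lists moved in other ways between vehicle and combination tumors. All 3 blood markers fell, their sum being 428 and 280 in vehicle and 63.2 and 80.2 in combination tumors. Of 7 fibroblast markers 3 rose (2 without vehicle replicate 1), of 5 B cell markers 3 fell, and of 7 neutrophil markers 2 fell. The other 2 B cell markers had positive log2 values and were not called. The B cell sum, with Cd79b the brightest, did not fall, at 0.819 and 1.43 in vehicle and 1.4 and 1.83 in combination tumors. None of the 6 endothelial, 6 skeletal muscle, 3 epidermal or 6 cell division markers was called by limma at an adjusted p, and at an unadjusted p 1 endothelial and 1 muscle marker was higher, and 0 without vehicle replicate 1. Epidermal markers summed to 27.6 in TP-16 replicate 2 and 28.0 in anti-PD-1 replicate 2 and to at most 4.71 in the other samples. Of 8 epithelial markers 6 were tested and 2 fell (1 without vehicle replicate 1), while Epcam and Vil1 were not well above background on both arrays of any group. What these lists contribute to the members' values was not tested.

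Promoters of members that moved together are shown because interferon acts through known short motifs. Iigp1 was left out of the promoter search. RefSeq promoters (GRCm38.p6, 250 bases before to 50 after the start) were matched by symbol for 7 members: Gbp2, Gbp3, Gbp5, Gbp7, Igtp, Irgm1 and Irgm2. The gamma activated site, searched as TTCNNNGAA, was in promoters of 4 of them (Gbp5, Gbp7, Igtp and Irgm2) and in 8.3% of all 32851 promoters. Part of the interferon stimulated response element, searched as GAAANNGAA or TTCNNTTTC on either strand, was in promoters of all 7 and in 8.56% of all promoters, and both motifs together in 4 members and in 1.07% of promoters. The 7 members had 8 promoters, and 1 promoter of Gbp3 held neither motif. A match describes letters and is not a binding site. The windows run 5′ to 3′ on the strand of the gene, with the motif in capitals: the response element part for Gbp2 (chr3:142620595-142620623, plus strand) and Gbp7 (chr3:142530274-142530302, plus strand), then the gamma activated site for Igtp (chr11:58199501-58199529, plus strand) and Irgm2 (chr11:58214892-58214920, plus strand).
Gbp2: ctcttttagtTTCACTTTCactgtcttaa
Gbp7: tgtgtgcagtTTCAGTTTCagttctccat
Igtp: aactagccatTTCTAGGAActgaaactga
Irgm2: aactagccatTTCCAGGAActgaaactga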

How the data were processed

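The deposited scanner files hold spot intensity from Agilent Feature Extraction 10.7.1.1 per the labels, background-subtracted and not normalized between arrays. The authors' table of log2 values, made with software whose kind of normalization is not given in the sources used here, was used as an alternative; its columns share 1 distribution. Its medians ran from 8.315 to 8.325. Control spots and 959 spots marked as outliers were left out, spots of a probe were averaged, and log2 signal minus each array's 75th percentile was taken. A probe was tested where some group had it well above background in both samples (31912 of 56567) with limma 3.58.1 in R 4.3.3, 1 mean per group and 4 residual degrees of freedom, with Benjamini-Hochberg adjustment over all tested probes. A gene was given by its tested probe with the highest mean. Of the probes, 32971 were named through RefSeq accessions, and the file's name was kept otherwise. The number of arrays limits the precision. Extraction of RNA is described differently in the labels and in the methods. By rule, named genes were the 10 members, list genes called in combination against vehicle, Ifng and Irf1, and genes most like the members. Other family, signal chain and marker genes were picked after their values were seen; 1 gene is not reported here. The members and lists were chosen with earlier results of these data known. Alternatives covered scaling, background, filters, test, spread, probe choice, replicate block and leaving out each array.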

Additional observations from a re-analysis of the deposited data

How the results depend on the processing

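The log2 fold changes of the 10 members, each by its brightest probe or the mean of its probes, were positive in 190 of 190 values for each of the 5 pairwise comparisons, over all settings. Settings that change only the filter, the test or the spread leave a log2 fold change as it is. Many of these values therefore repeat the main ones. With every sample and the main settings, the other Gbp5 probe was negative in all 5. Its vehicle replicate 2, at −0.52, lay below both anti-PD-1 samples, at −0.16 and 0.05. The negative sign of anti-PD-1 against vehicle for this probe therefore rested on vehicle replicate 1. Quantile scaling moved the median of all probes in combination against vehicle from −0.20 to −0.013, and the members' median from 2.64 to 3.04, with 10 members called at an adjusted p.

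In combination against vehicle, 2 members were called at an adjusted p with no filter on dim probes, 0 by the methods' t-test and 0 with only the compared groups in the fit. That t-test and that fit called 0 of all tested probes at an adjusted p. At an unadjusted p the methods' t-test called 0 members and 2255 of all tested probes. For TP-16 against vehicle, normexp background gave 1 member at an adjusted p and 10 at an unadjusted p. Unadjusted counts there were 2 with trend and robust spread, 0 by the methods' t-test and 0 with only the compared groups. For anti-PD-1 against vehicle the unadjusted counts were 0 by the methods' t-test and 2 with only the compared groups. For combination against TP-16 they were 1 with normexp, 1 with probes above background on all arrays, 2 by the methods' t-test and 4 with only the compared groups. For combination against anti-PD-1 they were 1 by the methods' t-test and 1 with only the compared groups. The average effect of anti-PD-1 had 2 adjusted calls with normexp, and that of TP-16 had 4 with normexp and 1 with probes above background on all arrays. Fitting only the compared groups leaves fewer samples to estimate the spread, and for the other settings the cause was not tested. In the ranges that follow, the calls over all tested probes also changed with the sample left out. A low or high end therefore describes the whole fit and not the members alone.

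Leaving out each sample in turn, adjusted calls ran from 0 to 9 for TP-16, from 0 to 9 for the antibody and from 0 to 10 for the combination, each against vehicle. Unadjusted calls ran from 0 to 10 for TP-16, 1 to 10 for anti-PD-1, 7 to 10 for the combination, 0 to 4 for combination against TP-16 and 0 to 1 for combination against anti-PD-1. Against TP-16 and against anti-PD-1 the combination had 0 adjusted calls by limma in each of these fits. Adjusted calls ran from 0 to 1 for the departure from additivity and from 0 to 10 for each average effect.

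The labels give the replicate number no meaning shared between groups, and differences between replicates correlated between pairs of groups at −0.193, −0.111, 0.155, 0.179, 0.253 and 0.290. With the replicate number as a block, 7 members in place of 9 were called in combination against vehicle, and the block changed no other count of members.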
